A study of Mus musculus with 8 samples.

Results

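Chemokines, cytokines of the tumour necrosis factor (TNF) family and homing receptors were followed through 10 genes in a pair of mouse pre-B leukaemia lines. They were the chemokine ligands Ccl3, Ccl4, Ccl5, Ccl9 and Cxcl10, the cytokines Tnf and Ltb, and the receptors Ccr7, Cxcr4 and Cxcr5. The genes were chosen by name among the non-control probes of the array, which carried 36315 gene names, and each was represented by 1 probe (the Tnf probe was spotted 10 times). All 10 were among the 18790 genes tested, a gene being tested where 1 or more groups had it well above background on both of their arrays.

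RNA was taken from '18-81' cells, pre-B cells that owe their transformation to Abelson murine leukaemia virus (A-MuLV), and from 70Z/3 cells, a pre-B lymphoblast line from a leukaemia. Either line received a synthetic duplex at 10 nM by lipid transfection, pre-miR-125b or the control duplex miR-Neg, with a change of medium at 8 h and RNA harvest at 48 h. The 4 groups were '18-81' with miR-125b, '18-81' with miR-Neg, 70Z/3 with miR-125b and 70Z/3 with miR-Neg, each with replicates 1 and 2 from 2 independent experiments, on 8 one-colour arrays. Every sample thus carried a duplex, each origin was represented by a single line, and the stated purpose was to find targets of miR-125b. Mature miR-125b was not analysed here. Its RefSeq sequence (GRCm38.p6, encoded at chr9:41581940-41581961 and chr16:77646279-77646300, both on the plus strand) is shown because the delivered duplex is named for it, with the seed, bases 2 to 8, in capitals.
miR-125b-5p: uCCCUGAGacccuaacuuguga

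Chemokines are small secreted proteins that steer leukocytes through G-protein-coupled receptors. Many inflammatory chemokine genes are switched on by NF-kappaB or by interferon signalling. TNF and the lymphotoxins signal through TNF-family receptors to NF-kappaB and, in lymphoid tissue, help to set up the chemokine fields that lymphocytes follow. Cxcr4 holds B-cell precursors in the bone marrow, whereas Ccr7 and Cxcr5 guide mature lymphocytes into T-cell zones and B-cell follicles.

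The lines differed in most of these genes. In '18-81' cells all of the chemokine ligands examined, together with Ccr7 and Cxcr4, were lower than in 70Z/3 cells, Ltb and Cxcr5 were higher, and the difference in Tnf was within the spread. By limma, with p-values adjusted by Benjamini-Hochberg over all genes tested at 0.05, 9 of the 10 genes (90%) passed between the lines, against 32.1% of all genes tested. Of the 9, 2 were higher in '18-81' cells (16.4% of all genes) and 7 lower (15.7% of all genes). The arrays of the lines did not overlap for 9 of 10 genes, against 36.8% of all genes. Ccl4, Ccl9 and Cxcl10 entered the test only through 70Z/3 cells and Cxcr5 only through '18-81' cells, so for these 4 genes some difference was built into the filter. Of the 6 genes that were well above background on all 8 arrays, 5 passed, against 24.3% of the genes so filtered. No duplex comparison gave a gene past the adjusted threshold, among the 10 or among all 18790 genes.

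**Figure D1:**
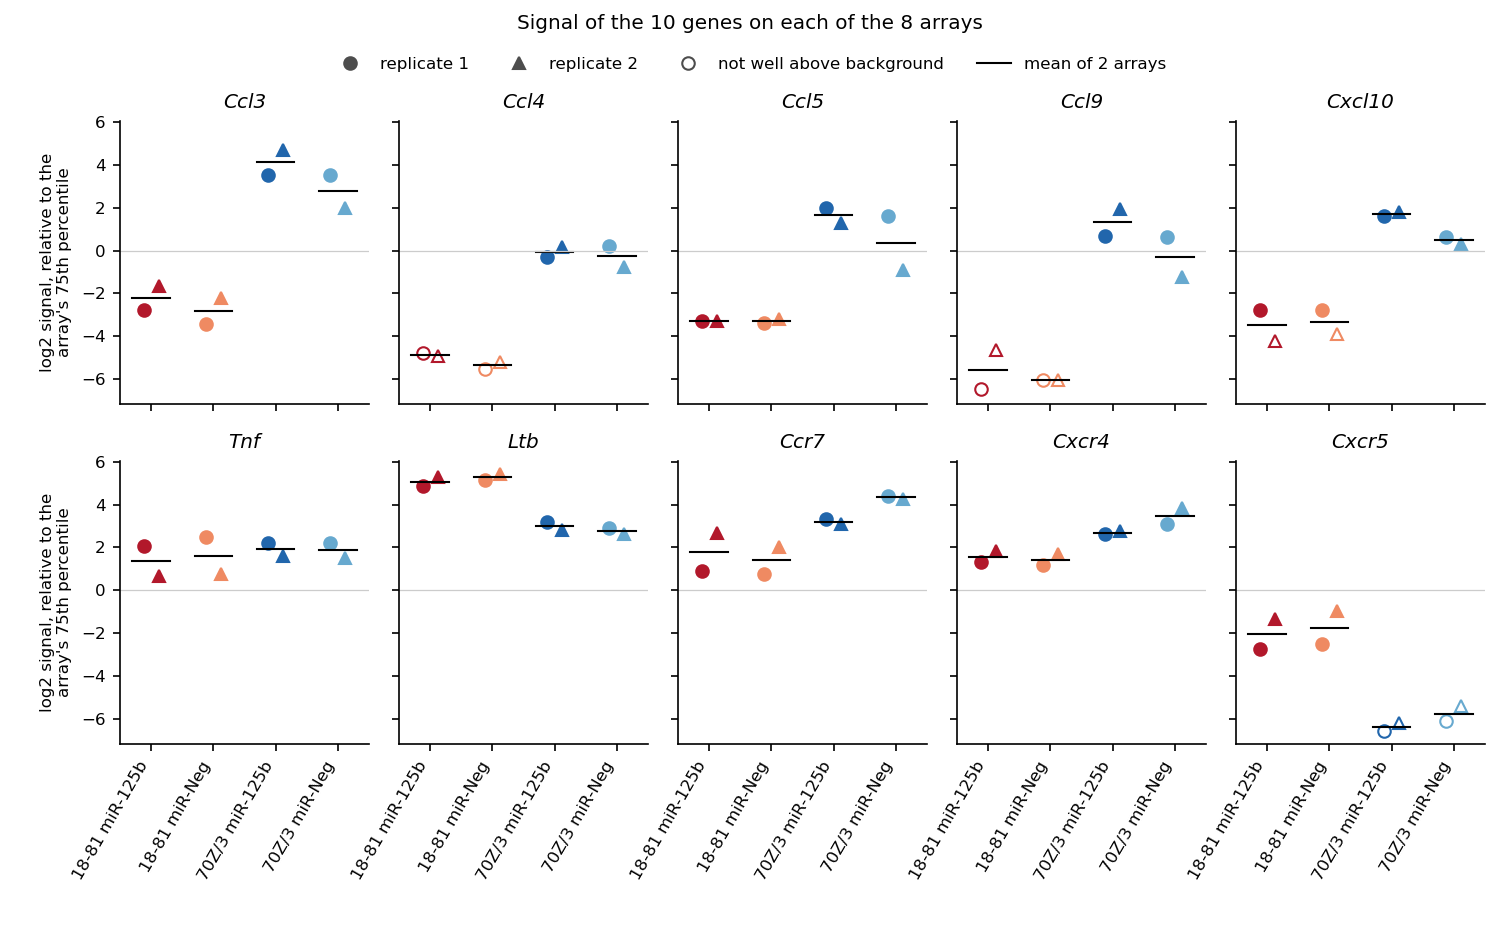
Log2 signal of the 10 genes relative to the 75th percentile of each array (vertical axis) in the 4 groups, with circles for replicate 1, triangles for replicate 2, open symbols for arrays on which the probe was not well above background and a line at the mean of the 2 arrays. The '18-81' arrays lie below the 70Z/3 arrays for the chemokine ligands, Ccr7 and Cxcr4, above them for Ltb and Cxcr5, and among them for Tnf.

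All levels below are log2 intensities relative to the 75th percentile of the same array, so that 0 marks that percentile. Levels of different probes are not on a common scale and are not compared. Differences are log2 differences with the limma standard error after the ± sign, for which the 4 groups share the spread of a gene. In bulk RNA, fewer cells with a transcript and less transcript per cell cannot be told apart.

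Among the ligands, Ccl3 (mm9, chr11:83461358-83461417, minus strand), which attracts monocytes and lymphocytes, was measured on all 8 arrays. Its level was -2.78 and -1.64 in '18-81' cells with miR-125b, -3.43 and -2.23 in '18-81' cells with miR-Neg, 3.51 and 4.70 in 70Z/3 cells with miR-125b and 3.53 and 1.99 in 70Z/3 cells with miR-Neg. Every '18-81' array lay below every 70Z/3 array, and within a line the duplex groups overlapped. The line difference was -5.95 ± 0.49, a 61.8-fold lower signal in '18-81' cells (limma, adjusted p = 3.29e-05).

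Ccl4 (chr11:83478052-83478111, plus strand), an inflammatory chemokine for monocytes and T cells, stayed at background in '18-81' cells. It was measured at -4.80 and -4.91 there with miR-125b and at -5.51 and -5.21 with miR-Neg, against -0.31 and 0.18 in 70Z/3 cells with miR-125b and 0.22 and -0.76 with miR-Neg. The lines did not overlap. Where a group had no array above background, the fold is a bound, for the background subtraction of the deposited signals only. It sets the mean of the brighter arrays against, on each dim array, the lowest signal counted as well above background, or the probe's own signal where that was higher. Ccl4 was by this measure at least 15.4-fold lower in '18-81' cells (limma, adjusted p = 2.76e-06).

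Ccl9 (chr11:83388223-83388282, minus strand), a mouse chemokine that acts through Ccr1, was likewise at background in '18-81' cells. Its measured signal was -6.46 and -4.64 with miR-125b and -6.05 and -6.04 with miR-Neg in '18-81' cells, against 0.70 and 1.94 with miR-125b and 0.65 and -1.24 with miR-Neg in 70Z/3 cells. The 70Z/3 arrays with miR-125b were both higher than those with miR-Neg, in replicate 1 by only 0.05. The gene was at least 24.7-fold lower in '18-81' cells (limma, adjusted p = 4.59e-05).

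Ccl5 (chr11:83339296-83339355, minus strand), which recruits T cells and monocytes and is induced by antiviral signalling, was low but well above background in '18-81' cells. Levels were -3.27 and -3.27 with miR-125b and -3.39 and -3.18 with miR-Neg in '18-81' cells, against 1.99 and 1.30 with miR-125b and 1.60 and -0.89 with miR-Neg in 70Z/3 cells. The '18-81' arrays lay close together, whereas replicate 2 of 70Z/3 with miR-Neg stood below the other 70Z/3 arrays. The line difference was -4.28 ± 0.50, 19.4-fold lower in '18-81' cells (limma, adjusted p = 0.000272), and was -3.65 without replicate 1 and -4.90 without replicate 2 of 70Z/3 with miR-Neg.

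Cxcl10 (chr5:92775781-92775840, minus strand), an interferon-inducible ligand of Cxcr3, was well above background on 2 of 4 arrays of '18-81' cells, those of replicate 1. It had levels of -2.79 and -4.20 with miR-125b and -2.75 and -3.87 with miR-Neg in '18-81' cells, against 1.60 and 1.79 with miR-125b and 0.64 and 0.31 with miR-Neg in 70Z/3 cells. Within 70Z/3 both miR-125b arrays were above both miR-Neg arrays, and within '18-81' the duplex groups overlapped. The line difference was -4.49 ± 0.37, 22.4-fold lower in '18-81' cells (limma, adjusted p = 3.55e-05).

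Ccl5, Ccl9, Ccl3 and Ccl4 are neighbours on chromosome 11, in this order in the RefSeq annotation, with Ccl6, a further chemokine, between Ccl9 and Ccl3. Ccl6 was lower in '18-81' cells as well, by -3.81 ± 0.48 (limma, adjusted p = 0.000428). It was at -4.15 and -2.26 with miR-125b and -3.34 and -2.59 with miR-Neg in '18-81' cells, the first of these not well above background, against 0.40 and 1.64 with miR-125b and 0.77 and 0.07 with miR-Neg in 70Z/3 cells. The protein-coding genes of this stretch were thus all lower in '18-81' cells.

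**Figure D2:**
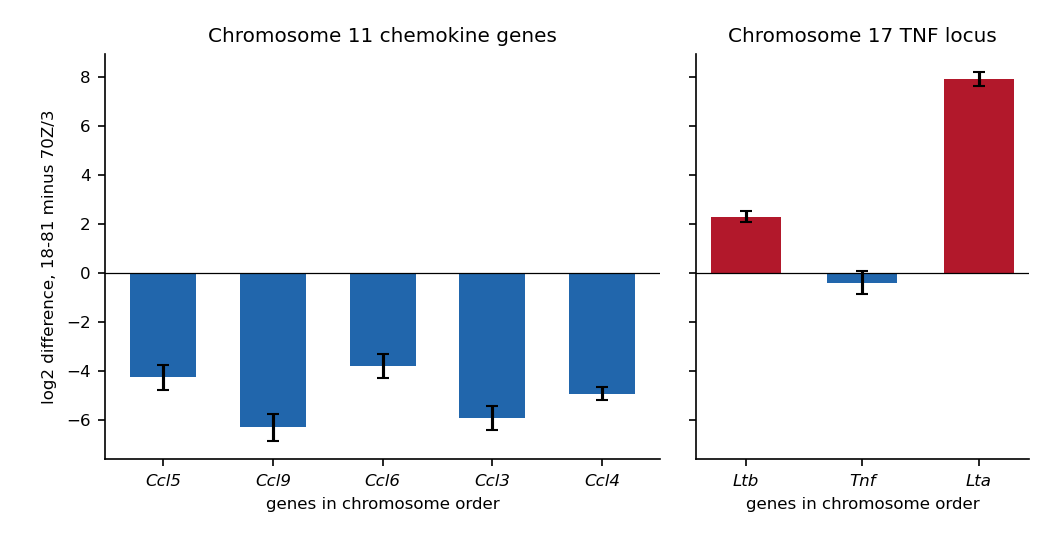
Log2 difference of '18-81' minus 70Z/3 cells (bars, vertical axis; error bars are ± 1 limma standard error) for neighbouring genes in chromosome order. On chromosome 11 all of the chemokine genes shown are lower in '18-81' cells, the fitted values of Ccl9 and Ccl4 resting on '18-81' signals at background, while on chromosome 17 Ltb (2.29) and Lta (7.91) are higher and Tnf (-0.40) is not called.

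Of the cytokines, Tnf (chr17:35336795-35336854, minus strand), the founding member of its family and a strong activator of NF-kappaB, was well above background on all 8 arrays. Its levels were 2.06 and 0.67 with miR-125b and 2.48 and 0.76 with miR-Neg in '18-81' cells, against 2.23 and 1.61 with miR-125b and 2.20 and 1.53 with miR-Neg in 70Z/3 cells. Replicate 1 was above replicate 2 in each group, and the lines overlapped. The line difference was -0.40 ± 0.46 with a 95% interval of -1.47 to 0.67 (limma, adjusted p = 0.567).

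Ltb (chr17:35333097-35333156, plus strand), which anchors lymphotoxin to the cell membrane and is needed for lymph node and follicle organisation, was higher in '18-81' cells. Levels were 4.87 and 5.28 with miR-125b and 5.13 and 5.44 with miR-Neg in '18-81' cells, against 3.19 and 2.83 with miR-125b and 2.92 and 2.63 with miR-Neg in 70Z/3 cells. The lines did not overlap and the arrays of a line lay within a narrow range. The difference was 2.29 ± 0.21, a 4.89-fold higher signal (limma, adjusted p = 7.22e-05).

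Tnf lies between Ltb and Lta, which encodes the soluble lymphotoxin chain that pairs with the Ltb product. Lta was 6.66 and 6.70 with miR-125b and 6.88 and 6.62 with miR-Neg in '18-81' cells, against -0.51 and -1.66 with miR-125b and -1.31 and -1.29 with miR-Neg in 70Z/3 cells. It was above background on all arrays and did not overlap between lines. The difference of 7.91 ± 0.28 passed the test (limma, adjusted p = 2.49e-07), so the genes on both sides of Tnf were higher in '18-81' cells while Tnf itself was not called.

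The upstream sequences of Cxcl10, Tnf and Ltb are shown because a group of interferon-responsive genes is compared with Cxcl10 below, and because Tnf and Ltb are neighbours with different line differences. Each runs over the 250 bases before the RefSeq gene start (GRCm38.p6): chr5:92348890-92349139 on the minus strand for Cxcl10, chr17:35202008-35202257 on the minus strand for Tnf and chr17:35194257-35194506 on the plus strand for Ltb. Capitals mark matches, on either strand, to an NF-kappaB pattern (GGG, any 5 bases, CC) or to an interferon-stimulated response element pattern (GAAA, any 2 bases, GAAA).
Cxcl10: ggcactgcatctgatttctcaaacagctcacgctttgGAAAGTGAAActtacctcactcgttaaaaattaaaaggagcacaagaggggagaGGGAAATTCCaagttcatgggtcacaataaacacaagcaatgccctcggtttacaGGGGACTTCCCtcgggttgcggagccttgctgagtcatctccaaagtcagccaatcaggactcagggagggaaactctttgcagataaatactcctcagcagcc
Tnf: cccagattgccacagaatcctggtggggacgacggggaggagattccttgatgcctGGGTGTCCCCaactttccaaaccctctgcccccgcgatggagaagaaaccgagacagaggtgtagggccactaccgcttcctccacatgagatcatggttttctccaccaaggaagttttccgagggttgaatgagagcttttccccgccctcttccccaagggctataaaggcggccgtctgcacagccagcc
Ltb: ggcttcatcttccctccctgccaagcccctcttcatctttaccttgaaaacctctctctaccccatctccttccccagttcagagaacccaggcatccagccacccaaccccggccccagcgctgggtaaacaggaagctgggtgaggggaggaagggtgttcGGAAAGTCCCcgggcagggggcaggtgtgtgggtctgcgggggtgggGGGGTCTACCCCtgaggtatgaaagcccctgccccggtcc

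The Cxcl10 window held 1 match to the interferon pattern (GAAAGTGAAA, bases -213 to -204 from the gene start), a pattern found in 2.98% of 32851 RefSeq windows of the same length. It also held 3 matches to the NF-kappaB pattern, GGGAAATTCC at -159 to -150 and a pair of overlapping ones between -104 and -94. The Tnf window held 1 NF-kappaB match (GGGTGTCCCC, -194 to -185) and the Ltb window 4, GGAAAGTCCC at -87 to -78 and 3 overlapping ones between -40 and -29. The NF-kappaB pattern was present in 45.8% of all windows, and no interferon pattern lay in the Tnf or Ltb window. Of the other genes, the Ccl9 window held 1 NF-kappaB match and those of Ccl3 and Cxcr4 none of either pattern. Ccl4, Ccl5, Ccr7 and Cxcr5 had no entry. These matches describe letters in the window and say nothing of binding.

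Of the receptors, Ccr7 (chr11:99005551-99005610, minus strand), which follows Ccl19 and Ccl21 into lymph nodes, was lower in '18-81' cells. Levels were 0.89 and 2.68 with miR-125b and 0.78 and 2.02 with miR-Neg in '18-81' cells, against 3.34 and 3.08 with miR-125b and 4.42 and 4.28 with miR-Neg in 70Z/3 cells. The lines did not overlap, although in replicate 2 with miR-125b their difference was only -0.40. The difference was -2.19 ± 0.43, 4.56-fold lower (limma, adjusted p = 0.00538), and ranged from -2.64 to -1.74 when each array was left out in turn.

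Cxcr4 (chr1:130485079-130485138, minus strand), the receptor for Cxcl12, was lower in '18-81' cells too. Levels were 1.32 and 1.84 with miR-125b and 1.16 and 1.69 with miR-Neg in '18-81' cells, against 2.64 and 2.75 with miR-125b and 3.09 and 3.82 with miR-Neg in 70Z/3 cells. Neither the lines nor the 70Z/3 duplex groups overlapped. The difference was -1.57 ± 0.26, 2.97-fold lower (limma, adjusted p = 0.002).

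Cxcr5 (chr9:44320071-44320130, minus strand), the receptor for the follicular chemokine Cxcl13, was well above background on every '18-81' array and on no 70Z/3 array. Levels were -2.75 and -1.33 with miR-125b and -2.50 and -0.98 with miR-Neg in '18-81' cells, against measured signals of -6.56 and -6.18 with miR-125b and -6.09 and -5.41 with miR-Neg in 70Z/3 cells. The lines did not overlap, and replicate 2 was above replicate 1 in each group. Cxcr5 was at least 3.91-fold higher in '18-81' cells (limma, adjusted p = 0.000143).

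**Figure D3:**
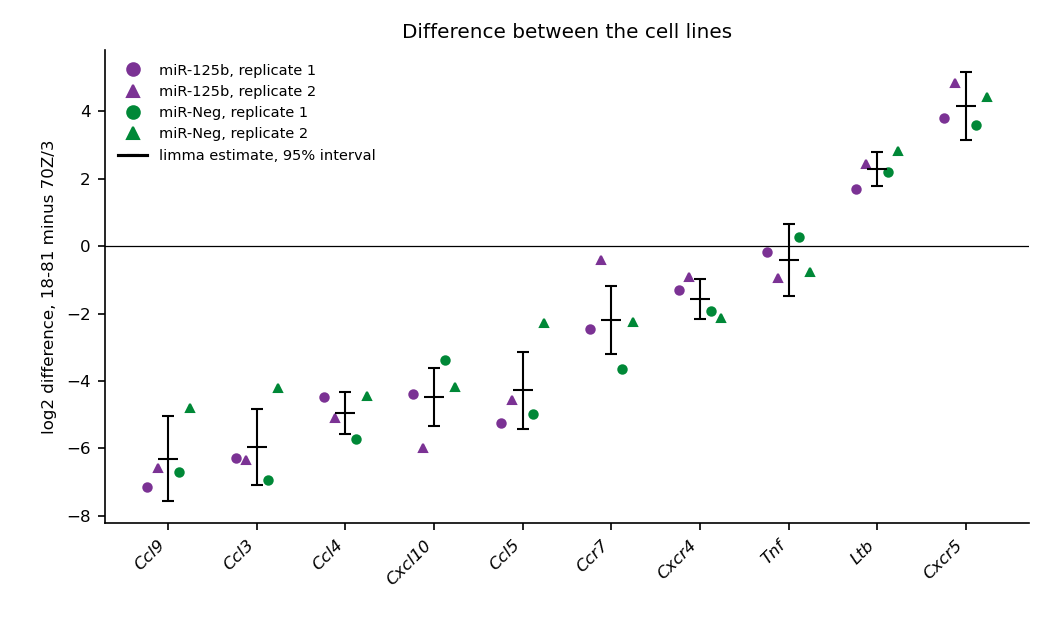
Log2 difference of '18-81' minus 70Z/3 cells for the 10 genes (vertical axis), with purple symbols for the pairs with miR-125b, green symbols for the pairs with miR-Neg, circles for replicate 1, triangles for replicate 2 and bars for the limma estimate with its 95% interval. The interval includes 0 for Tnf alone, and the Ccr7 pairs run from -3.64 to -0.40.

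The same families were followed through lists of their other genes, whose counts stand against 32.1% of all genes called between the lines, 16.4% higher and 15.7% lower in '18-81' cells. As among the 10 genes, those above background in 1 line only entered the test through that line and had to differ, and each list is therefore also given for its genes above background on all 8 arrays, where 24.3% of all genes were called. Of 33 other chemokine ligands 8 were tested, and 3 were lower and 1 higher in '18-81' cells. Of these 8, 2 entered only through 70Z/3 and 1 only through '18-81' cells, and the 4 above background on all arrays were those that did not pass (0 of 4 also at an unadjusted p under 0.05, limma). Ccl27a was at least 10.2-fold and Ccl2 at least 4.08-fold lower, both being at background on every '18-81' array, and Ccl6 is given above. Ccl27a has close copies in the mouse, so its value is uncertain. Xcl1, at background on every 70Z/3 array, was at least 1.21-fold higher.

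Of 21 other chemokine receptors 8 were tested, with 3 higher and 3 lower in '18-81' cells. Only 2 of them were above background on all arrays, and both passed. Ccr6, a receptor of B cells and dendritic cells for Ccl20, was higher by 5.71 ± 0.38, and Ccr10, at background on every 70Z/3 array, at least 11.7-fold. The scavenging receptor Ackr2, above background on 1 of 4 arrays of 70Z/3 cells, was at least 4.25-fold higher in '18-81' cells with miR-Neg. Cxcr3, the receptor for Cxcl10, was at background on every '18-81' array and at least 7.14-fold lower there. Ccr2, which binds Ccl2, had a difference of -4.10 ± 0.28.

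Of 16 other TNF family ligands 8 were tested, with Lta higher and 5 lower in '18-81' cells, among them Tnfsf4, the ligand of Tnfrsf4 (at least 24.2-fold), and Tnfsf8, the ligand of Tnfrsf8 (at least 10.8-fold), both at background there. Of these 8, 4 entered only through 70Z/3 cells, and 2 of the 4 above background on all arrays passed. Relative to all genes the list median was -2.52 over the 8 and -0.05 over those 4. Of 20 TNF and lymphotoxin receptors and adaptors 14 were tested, with 5 higher, including the adaptor Traf1 (at least 2.89-fold, at background in 70Z/3 cells) and the death receptor Tnfrsf10b (2.07 ± 0.22), and 2 lower, Traf5 (-1.85) and Ripk1 (-1.26). Of the 11 above background on all arrays 5 passed. The list median relative to all genes was 0.30 over the 14 and -0.12 over those 11, so that it changed sign. Of 12 NF-kappaB subunits and feedback inhibitors 11 were tested, and the atypical inhibitor Bcl3 (3.89 ± 0.23) was the one that passed, being higher in '18-81' cells. Of the 10 above background on all arrays 1 passed.

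Of 22 genes of lymphocyte adhesion, homing and egress 21 were tested, with 7 higher and 8 lower in '18-81' cells. Of these 21, 4 entered only through 70Z/3 and 2, Klf2 and S1pr4, only through '18-81' cells, and 10 of the 15 above background on all arrays passed. Klf2, a transcription factor that maintains egress receptors, was above background on every '18-81' array and on no 70Z/3 array and was at least 30.1-fold higher (limma, adjusted p = 3.02e-07). The sphingosine 1-phosphate receptor S1pr4 was at least 5.93-fold higher in '18-81' cells, whereas the hyaluronan receptor Cd44 (-5.10 ± 0.28) and the integrin chain Itga4 (-2.97 ± 0.19) were lower. S1pr1, above background on 1 of 4 arrays of '18-81' cells, was at least 6.07-fold lower there with miR-Neg. The homing receptors thus did not move as a block between the lines.

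Markers of cell types gave the following picture. Their counts between the lines stand against 16.4% of all genes higher and 15.7% lower in '18-81' cells. Among all genes above background on every array, 24.3% were called. Of 12 B-lineage markers 11, all but Rag1, were well above background on every array, with a summed linear signal of 547 to 647 times the 75th percentile in '18-81' cells and 905 to 1987 times in 70Z/3 cells. Of these 11, 3 were higher and 6 lower in '18-81' cells. Of 10 myeloid markers 6 were above background on every '18-81' array and 5 to 7 on a 70Z/3 array, with sums of 149.1 to 212 in '18-81' cells and 114 to 172 in 70Z/3 cells. Of the 8 myeloid markers tested 1 was higher and 2 lower in '18-81' cells. Of these 8, 1 entered only through '18-81' and 2 only through 70Z/3 cells, and 0 of the 5 above background on all arrays passed. Fcgr1, a myeloid Fc receptor gene at background on every 70Z/3 array, was at least 44.0-fold higher in '18-81' cells. Lyz2 and Mpo were above background on no '18-81' array and on the miR-125b arrays alone in 70Z/3 cells. Cd14 and Adgre1 were at background in both lines. Of 9 T-cell markers 7 to 8 were above background in '18-81' cells (sums of 19.9 to 31.3) and 5 in 70Z/3 cells (43.9 to 165). Of the 8 tested, 3 were higher and 2 lower in '18-81' cells. Of these 8, 3 entered only through '18-81' cells, and 2 of the 5 above background on all arrays passed. Cd2 and Cd3g, at background on every 70Z/3 array, were at least 20.3-fold and 5.61-fold higher in '18-81' cells. Lck and Zap70 were lower there in every pair, by -3.25 to -1.10 and by -3.10 to -0.53. Of 6 stromal markers at most 1 was above background on an array. The part of these genes in the line differences was not tested.

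The comparison of miR-125b with miR-Neg asks which transcripts respond to the microRNA. In 70Z/3 cells 0 of the 10 genes passed the adjusted test and 0% of all genes did (limma), while 1 of 10, Cxcl10, had an unadjusted p under 0.05, against 5.91% of all genes in either direction. The arrays of the duplex groups did not overlap for 5 of 10 genes, against 37.7% of all genes. These were Ccl9 and Cxcl10, higher with miR-125b (14.9% of all genes), and Ccr7, Cxcr4 and Cxcr5, lower with miR-125b (22.8% of all genes). Cxcr5 was at background in both groups, so no fold is given for it. The median of all genes was itself shifted by -0.14 in this comparison.

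**Figure D4:**
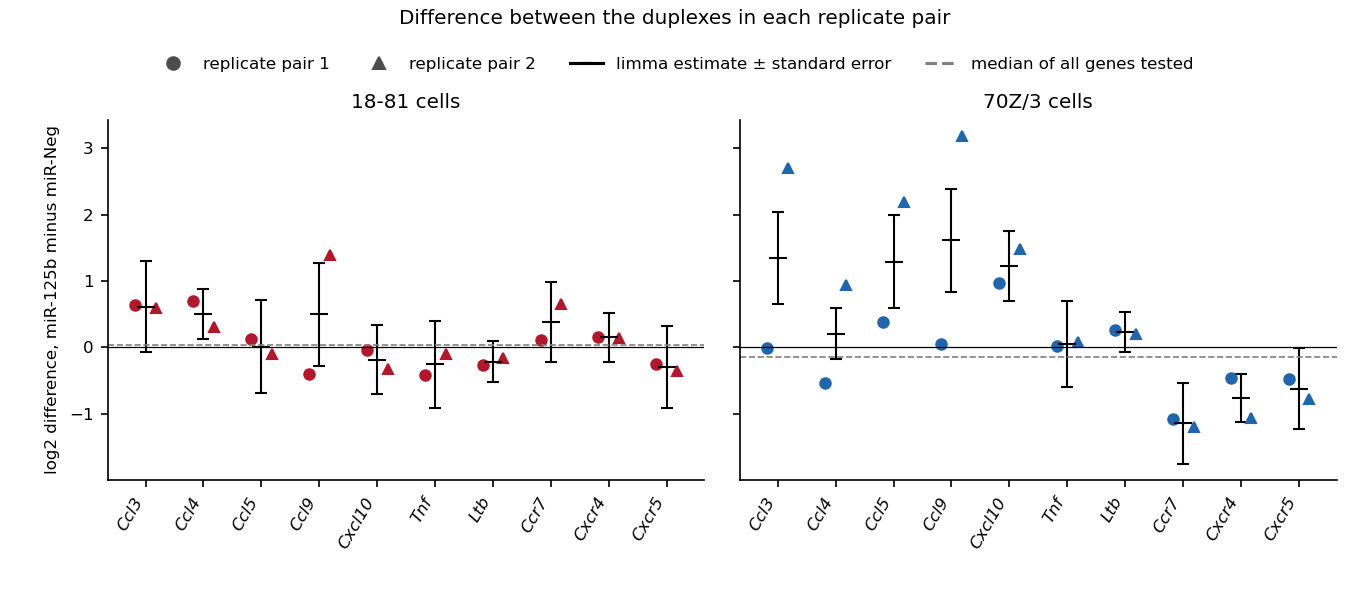
Log2 difference of miR-125b minus miR-Neg (vertical axis) for the 10 genes in each replicate pair (circles for pair 1, triangles for pair 2), in '18-81' cells (left) and 70Z/3 cells (right), with the limma estimate ± 1 standard error and a dashed line at the median of all genes tested. In 70Z/3 cells the pairs of Ccl3, Ccl5 and Ccl9 lie far apart and those of Cxcl10 (0.97 and 1.48) and Ccr7 (-1.08 and -1.20) lie close together.

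Cxcl10 differed by 0.97 in replicate pair 1 and 1.48 in pair 2 of 70Z/3 cells. The estimate was 1.22 ± 0.53, a 2.33-fold higher signal with miR-125b (limma, adjusted p = 0.767, unadjusted p = 0.0494). Both pairs pointed the same way, and neither pair rested on an array at background.

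The other ligands differed between the pairs. Ccl3 had differences of -0.01 and 2.70, and its estimate of 1.35 ± 0.69 became 0.58 without replicate 2 of 70Z/3 with miR-Neg. Ccl9 had 0.05 and 3.18 (estimate 1.62 ± 0.77), which became 0.67 without the same array. Ccl5 had 0.38 and 2.20 (1.29 ± 0.70), which became 0.04 without this array and 2.54 without replicate 1 of the group, where it passed the test (limma, adjusted p = 0.0401), as did 207 of 19059 genes in the same fit. Ccl4 had -0.53 and 0.95 (0.21 ± 0.38), so its pairs disagreed in direction.

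That array, replicate 2 of 70Z/3 with miR-Neg, was the dimmest. Its intensity had a 75th percentile of 279.2, where the others had 423.9 to 590.5. Of its probes 38.0% were well above background, where the others had 41.7 to 45.1%. In pair 1 too the miR-Neg array was the dimmer, with a 75th percentile of 429.8 against 581.6 with miR-125b. The part of array brightness in the differences of either pair was not tested.

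Tnf differed by 0.03 and 0.09 in the 70Z/3 pairs (0.06 ± 0.65) and Ltb by 0.27 and 0.20 (0.24 ± 0.30). For Tnf the 95% interval of -1.45 to 1.56 leaves room for sizeable change in either direction, and for Ltb it was -0.47 to 0.94.

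Among the receptors Ccr7 had differences of -1.08 and -1.20 in 70Z/3 cells. Its estimate was -1.14 ± 0.61, 2.21-fold lower with miR-125b, and did not pass the test (limma, adjusted p = 0.767). The 70Z/3 pairs lay close together, and the error of the shared fit also carries the spread of this gene in '18-81' cells, where the replicates of a group lay over 1 log2 unit apart. With the experiments as a block within each line the error was 0.21 and the adjusted p 0.211. Cxcr4 had -0.45 and -1.07 (-0.76 ± 0.36, 1.69-fold lower, adjusted p = 0.767 by limma). Relative to the median of all genes, these estimates were -0.62 for Cxcr4 and 1.36 for Cxcl10. Before scaling to the 75th percentile, the pair 1 intensities of Cxcr4 were 3613 with miR-125b and 3655 with miR-Neg. In pair 2 they were 2861 with miR-125b and 3945 with miR-Neg.

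In '18-81' cells 0 of 10 genes passed the adjusted test by limma, 0% of all genes did, and 0 of 10 had an unadjusted p under 0.05, against 1.23% of all genes. Only the Ccl4 arrays did not overlap between the duplex groups (1 of 10 genes, against 13.2% of all genes), and this gene was at background throughout the line. Cxcl10 had pair differences of -0.03 and -0.33 (-0.18 ± 0.53), Ccl5 of 0.12 and -0.09 (0.01 ± 0.70) and Ccl3 of 0.64 and 0.59 (0.62 ± 0.69). Both Ccl3 pairs were higher with miR-125b by similar amounts, although the replicates themselves lay over 1 log2 unit apart.

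Tnf had pair differences of -0.42 and -0.09 in '18-81' cells (-0.25 ± 0.65) and Ltb of -0.26 and -0.16 (-0.21 ± 0.30). Ccr7 had 0.11 and 0.66 (0.38 ± 0.61), Cxcr4 0.16 and 0.15 (0.15 ± 0.36) and Cxcr5 -0.24 and -0.35 (-0.30 ± 0.61). The pairs of each of these genes pointed one way, and every one of these estimates was smaller than its standard error.

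The duplex effects in the lines were compared directly, as the effect in '18-81' minus that in 70Z/3 cells. The difference of effects was -1.40 ± 0.75 for Cxcl10 (unadjusted p = 0.0969), 1.53 ± 0.86 for Ccr7 (unadjusted p = 0.115) and 0.91 ± 0.51 for Cxcr4 (unadjusted p = 0.115), all from limma. By limma 0 of 10 genes passed after adjustment (0% of all genes) and 0 of 10 before it (3.26% of all genes), with adjusted p-values of 0.931 or higher. No difference between the lines in their response was therefore shown for any of the 10 genes. Averaged over both lines, 0 of 10 genes passed (0% of all genes, limma) and 0 of 10 had an unadjusted p under 0.05 (2.72% of all genes).

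Cxcl10 and Ccl5 were set beside a list of 18 interferon response genes, of which 17 were tested and which holds neither of them. In 70Z/3 cells the median of the list was 1.74 with miR-125b relative to miR-Neg, 1.88 above the median of all genes, with 0 of 17 genes passing the adjusted test and 9 of 17 at an unadjusted p under 0.05 (limma), against 5.91% of all genes. The list was 0.94 above all genes in pair 1 and 2.60 in pair 2. Isg15, a ubiquitin-like modifier, was at 4.99 and 4.55 with miR-125b and 3.89 and 2.17 with miR-Neg, and the miR-Neg arrays differed from each other by more than the miR-125b arrays did. In '18-81' cells the list median was -0.03 between the duplexes. Between the lines, 15 of 17 were lower in '18-81' cells, against 15.7% of all genes, and none was higher. Of these 17, 10 entered the test only through 70Z/3 cells, and of the 7 above background on all arrays 6 passed, against 24.3% of such genes. The list median relative to all genes was -2.81 over the 17 and -1.59 over those 7, and with the miR-Neg arrays alone 9 of 17 passed. The highest group mean of Ccl5 and of Cxcl10 was that of 70Z/3 cells with miR-125b, and for Ccl5 this group overlapped the one with miR-Neg.

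**Figure D5:**
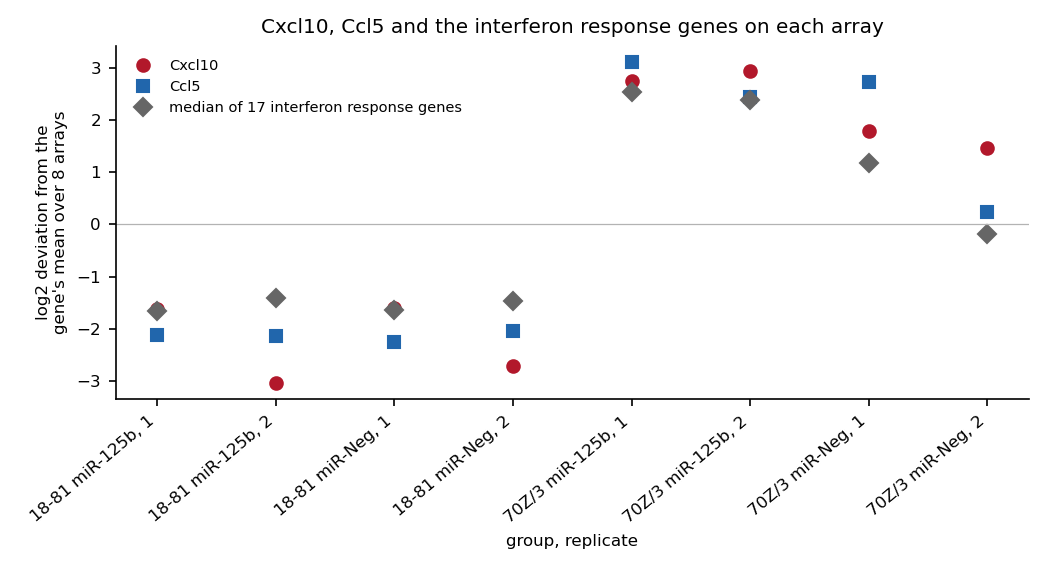
Log2 deviation of Cxcl10 (circles), Ccl5 (squares) and the median of 17 interferon response genes (diamonds) from each gene's own mean over the 8 arrays (vertical axis), by group and replicate. The list median is -1.65 and -1.41 in '18-81' cells with miR-125b, -1.63 and -1.47 in '18-81' cells with miR-Neg, 2.55 and 2.39 in 70Z/3 cells with miR-125b and 1.18 and -0.18 in 70Z/3 cells with miR-Neg.

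Genes with the pattern closest to each of the 10 were sought by Pearson r of the deviations from the line means over 8 arrays, among all genes tested, as a description. For Ccl5 they were the antiviral genes Rsad2 (r = 0.992) and Ifit1 (r = 0.991), the second of which has near-identical relatives. For Cxcl10 they were Coq8b (0.992) and Rgs16 (0.990), a regulator of G-protein signalling, for Ccr7 Spg7 (0.991) and Hp1bp3 (0.990), and for Cxcr4 Ccnb1 (0.996), a mitotic cyclin, and Jkamp (0.996). For Ccl3 they were Unc13d (0.984) and Bst1 (0.981), for Ccl4 Jun (0.956) and Pxmp4 (0.936), and for Ccl9 Dot1l (0.982). For Tnf they were C1qtnf6 (0.994) and Slc29a3 (0.993), for Ltb Adat1 (0.973) and Carf (0.954), and for Cxcr5 Csn2 (0.998) and the T-cell marker Cd3g (0.995). The points share 1 slide and 2 experiments, and the best of so many genes over 8 arrays is bound to have a high r. Cxcr5 and Cd3g were at background on every 70Z/3 array, and Ccl4, Ccl9, Rsad2 and Ifit1 on every '18-81' array. Rsad2 and Ifit1 were also at background on 1 of the 2 arrays of 70Z/3 with miR-Neg. The deviations of these genes on such arrays do not measure the transcript and also carry the scaling of each array.

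Other lists between the duplexes in 70Z/3 cells held no gene past the adjusted threshold (limma, 0 of all genes), and the counts at an unadjusted p under 0.05 stand against 5.91% of all genes. Among the other chemokine ligands 1 of 8 had an unadjusted p under 0.05, Ccl2, a chemokine for monocytes, at -0.67 and -1.89 with miR-125b and -3.45 and -2.33 with miR-Neg (1.61 ± 0.49, unadjusted p = 0.0118). Its arrays did not overlap between the duplex groups. Among the homing genes 4 of 21 had an unadjusted p under 0.05, including Cd69, an early activation antigen that limits egress, at 4.37 and 5.16 with miR-125b and 3.65 and 3.24 with miR-Neg (1.32 ± 0.39, unadjusted p = 0.00985). Both Cd69 arrays with miR-125b were above both with miR-Neg. The other chemokine receptors had 0 of 8, with Ackr2, at background on both miR-Neg arrays, at least 1.17-fold higher in signal and Ccrl2, at background in replicate 2 with miR-Neg, at 1.16 ± 0.52. The TNF receptors and adaptors had 2 of 14, Traf2 (-0.86 ± 0.26) and Traf3 (-0.74 ± 0.30). The other TNF ligands and the NF-kappaB genes had 0 of 8 and 0 of 11. In the same comparison the myeloid genes Lyz2 and Mpo were above background on both miR-125b arrays and on neither miR-Neg array, Csf1r was at -1.42 ± 0.52, and the summed T-cell signal was 43.9 and 47.2 with miR-125b against 53.8 and 165 with miR-Neg; their part in the values above was not tested.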

How the data were processed

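Total RNA of 8 samples was labelled with Cy3 and hybridised to 1 array each, on 1 slide. The slide rows follow the replicate number and the slide columns follow the group. Row therefore cannot be told apart from replicate, nor column from group. The deposited scanner files hold the processed intensity of each spot, background-subtracted by Agilent Feature Extraction 10.7.3.1, with probe positions in mm9, per the file headers. A deposited table of the whole series gives linear intensity for these arrays after a normalization that the sources used here do not describe, and it served as an alternative.

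Control spots and the 140 to 203 spots per array with an outlier flag were left out (0 spots were saturated), spots of a probe were averaged, and log2 values relative to the 75th percentile of each array were computed from the deposited intensity. Probes were named through the RefSeq table (GRCm38.p6, names only): the accession matched for 26413 probes, the symbol for 3859 and an outdated symbol for 735, and 24674 were left with the name in the file. The brightest probe stood for a gene. limma 3.58.1 in R 4.3.3 fitted 4 group means to all 8 arrays, with Benjamini-Hochberg adjustment at 0.05; the fit was tested on simulated data. The number of arrays limits the precision of every value.

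The 10 genes, the lists of related genes (other chemokine ligands, other chemokine receptors, other TNF ligands, TNF receptors and adaptors, homing genes, interferon response genes, NF-kappaB genes, and B-lineage, T-cell, myeloid and stromal markers), the named genes and the tests were chosen with earlier results of these data known. Named were the 10 genes, list members past the test (up to 6 a list and comparison) or with the 2 largest non-overlapping differences between duplexes, and the 2 closest patterns; Lyz2, Csf1r, Isg15, Rag1 and the genes at background were added with their values known. Genes closest over all 8 arrays are not given, since the lines form separate clusters.

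Deviations from group means correlated between same-numbered samples in every pair of groups (r of 0.37 to 0.65). Since the series also describes 2 independent experiments, the numbers pair the samples, although the reported fit has no block. Alternatives were normexp background correction (offset 50), quantile normalization, a 75th percentile over probes above background on all arrays, the deposited series table, no intensity filter, a filter on all 8 arrays, every probe, an intensity trend, blocks by replicate, the miR-Neg arrays alone, and leaving out each array. Promoter and microRNA sequences are from RefSeq. Target sites of miR-125b and protein sequences were not analysed here. Some genes of the lists and of the pattern search are not reported here.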

Additional observations from a re-analysis of the deposited data

How the results depend on the processing

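Between the lines, 9 of the 10 genes passed under every alternative except the filter on all 8 arrays, which leaves 6 genes and passed 5; leaving out each array in turn gave 9 to 9. The replicate block gave 9 between the lines and 0 in every duplex comparison, and the block within each line gave 0 in the duplex comparisons, so that pairing changed no call among the 10 genes. Between the duplexes in 70Z/3 cells 0 passed, with a range of 0 to 1 when an array was left out, the 1 being Ccl5 without replicate 1 of 70Z/3 with miR-Neg. Over all genes, leaving out an array gave 0 to 207 duplex calls in 70Z/3 cells and 0 to 74 in '18-81' cells, against 0 and 0, and the block within each line and normexp gave 1 each in 70Z/3 cells. Over all genes the line calls were 6032, and 3563 with the filter on all 8 arrays, 4069 with the miR-Neg arrays alone and 9017 with the replicate block. With the miR-Neg arrays alone, 3 in place of 7 TNF receptors and adaptors passed between the lines. In '18-81' cells the duplex difference of Ccl5 was -0.028 after quantile normalization and -0.027 in the deposited series table, against 0.01, and the difference of effects of Cxcr5 was -0.32 and -0.31, against 0.32. The median shift of all genes in 70Z/3 cells was -0.14, and -0.01 after quantile normalization.

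Leaving out an array in turn reversed the direction of these estimates, none of them called, with the lowest and highest value given. In 70Z/3 cells between the duplexes the range was -0.29 to 0.70 for Ccl4 and -0.28 to 0.39 for Tnf. In '18-81' cells it was -0.092 to 0.12 for Ccl5, -0.41 to 1.41 for Ccl9, -0.51 to 1.28 for Ccr7, -0.89 to 0.53 for Cxcl10, -0.11 to 0.42 for Cxcr4, -1.06 to 0.47 for Cxcr5 and -1.11 to 0.60 for Tnf. Averaged over the lines it was -0.83 to 0.070 for Ccr7, -0.090 to 0.11 for Ltb and -0.53 to 0.33 for Tnf. For the difference of effects it was -1.50 to 0.037 for Ccl3, -0.19 to 0.79 for Ccl4, -0.44 to 1.09 for Cxcr5 and -1.17 to 0.55 for Tnf, and for the line difference of Tnf -0.83 to 0.029. The cause was not tested. A left-out array leaves its group with 1 array, whose spread is taken from the other groups. Signals at background (Ccl4 and Ccl9 in '18-81', Cxcr5 in 70Z/3) give bounds only. Under normexp, with its offset of 50, the line differences of Ccl4, Ccl9 and Cxcr5 were -2.51, -3.41 and 1.36. These are smaller than the folds given above as at least 15.4, 24.7 and 3.91, so the bounds do not hold across background corrections. The folds given for Cxcl10, Ccl5 and Ccl3, whose '18-81' signals were low, also depend on the processing. With all arrays kept, the alternatives gave line differences of -4.55 to -3.10 for Cxcl10, -4.34 to -3.17 for Ccl5 and -6.02 to -4.99 for Ccl3. With 2 arrays a group, a duplex difference that missed the threshold does not show that a gene was unaffected.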
